A study of Mus musculus with 9 samples.

Results

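The fatty acid elongases and desaturases described here are the 10 mouse genes Elovl1, Elovl2, Elovl3, Elovl5, Elovl6, Scd1, Scd2, Fads1, Fads2 and Fads3, out of 18193 genes that had a probe set annotated to their symbol alone. They were listed by name, and these genes and the further lists below were chosen with earlier results of these data known. Each gene was represented by its probe set of highest mean signal over the 9 arrays, and the remaining ones among its 24 probe sets served as a check in the 8 genes that had several. All 10 genes passed the filter on dim signals and were tested.

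Livers were taken from 3 female Crlj:CD1(ICR) mice fed permethrin, 3 fed clofibrate and 3 fed the control diet, and each liver was hybridised to 1 Affymetrix array. Both chemicals were given in powdered diet at 5000 ppm for 2 weeks, and the control diet held 0 ppm. The mice were bought at 9 weeks of age and quarantined for 1 week. They carried no engineered allele, and the 3 groups shared strain, sex, housing and diet base. Permethrin is a pyrethroid insecticide, and clofibrate is a lipid-lowering drug that activates the nuclear receptor PPARα in rodent liver. The arrays measured whole liver, so a change in the makeup of liver cells and a change in RNA per cell cannot be told apart.

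Elongases and desaturases remodel fatty acids at the endoplasmic reticulum. An elongase (ELOVL) carries out the first, rate-limiting condensation of a cycle that adds a 2-carbon unit to an acyl-CoA, and 3 further enzymes, a ketoacyl-CoA reductase, a dehydratase and an enoyl-CoA reductase, complete that cycle. Desaturases insert double bonds with electrons passed on by cytochrome b5: SCD enzymes make monounsaturated oleate and palmitoleate, while FADS1 and FADS2 act, in turn with ELOVL5 and ELOVL2, on the dietary polyunsaturated fatty acids. In rodent liver several of these genes are known targets of the lipogenic factor SREBP-1c and of PPARα.

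Values below are deposited signals, linear array intensities after each array was scaled to the same trimmed mean. A log2 change is the difference between group means of log2(signal + 3.35), and it understates changes of dim genes. Tests are from 1 limma model over the 9 arrays, with Benjamini-Hochberg adjustment over 24548 tested probe sets and a threshold of 0.05. Signals of different genes are not set against each other, since each probe set has its own brightness.

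Under permethrin 1 of the 10 genes changed, Elovl3, which rose. Over all 12477 tested genes, 2.13% changed in this comparison, and 1.28% rose. Under clofibrate 4 of the 10 changed against 7.02% of all genes: Elovl3, Scd2 and Fads2 rose, and Elovl2 fell (3.22% of all genes rose and 3.8% fell). Between permethrin and clofibrate none of the 10 passed the threshold in limma, where 0.737% of all genes did. An unadjusted p under 0.05 was found there for 3 of the 10, beside 1625 of all 12477 tested genes. The median log2 change of the 10 genes was 0.27 under permethrin, 0.09 under clofibrate and 0.04 between both diets, beside -0.04, -0.04 and -0.01 over all tested genes. With the limma variance estimated without an intensity trend, 0 of the 10 passed in either comparison with the control diet.

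**Figure D1:**
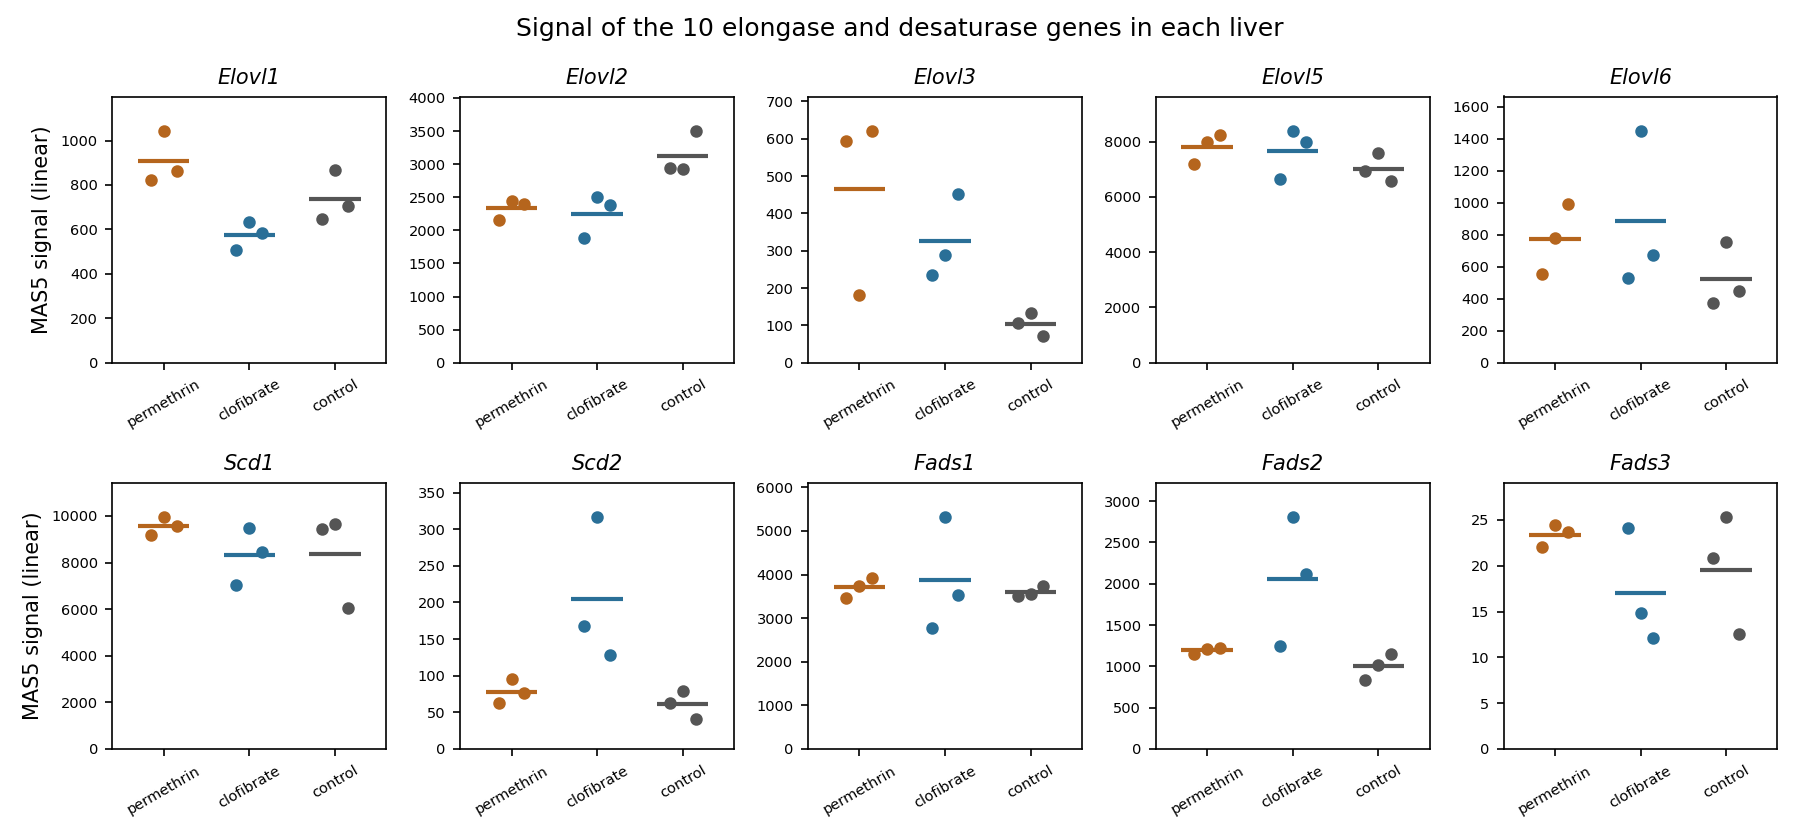
Signal of each of the 10 genes (its probe set of highest mean signal; linear y axis from 0, own scale per panel) in every permethrin, clofibrate and control liver; points are arrays and the horizontal bar is the group mean, n = 3. In Elovl3, Scd2 and Fads2 all clofibrate livers lie above all control livers, while the means of Elovl5, Scd1 and Fads1 lie at similar heights.

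Elovl3, which extends saturated and monounsaturated chains and is known from skin, brown fat and the liver, showed the widest change of the elongases. Its signal was 595, 181 and 620 in the permethrin livers, 234, 289 and 452 in the clofibrate livers, and 105, 132 and 71.2 in the control livers. All treated livers lay above all control livers, and permethrin replicate 2 was the lowest of its group, below every clofibrate liver. Group means were 465 ± 246 under permethrin, 325 ± 113 under clofibrate and 103 ± 30.6 under the control diet (SD, n = 3 each). The rise was 1.99 ± 0.42 on the log2 scale under permethrin (SE; 3.97-fold, limma adjusted p = 0.0422) and 1.62 ± 0.42 under clofibrate (3.06-fold, limma adjusted p = 0.0494). Between the diets Elovl3 differed by 0.38, with a 95% interval of -0.55 to 1.30 (limma adjusted p = 0.78). Both calls lay close to the threshold. The permethrin call ended without permethrin replicate 1 (1.72), permethrin replicate 3 (1.69), clofibrate replicate 2 (1.99) or control replicate 1, 2 or 3 (2.03, 2.19 and 1.76), and the clofibrate call ended without clofibrate replicate 1, 2 or 3 (1.82, 1.67 and 1.35) or control replicate 1, 2 or 3 (1.65, 1.81 and 1.38).

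Elovl3 is also a fat-tissue gene, so the fat-cell markers Adipoq, Plin1, Cfd, Retn, Lep and Fabp4 were read in the same livers. Of these 6 markers 4 had a probe set and only Fabp4 passed the filter. The defining markers Adipoq and Lep lay below the floor of 15.6 on all 9 arrays. The summed level of the 4 ranged over 148 to 263 under permethrin, 179 to 281 under clofibrate and 146 to 215 under the control diet, and Fabp4 did not pass the threshold under permethrin or clofibrate (limma adjusted p = 0.853 and 0.327).

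Elovl2, the elongase that carries the chain towards docosahexaenoic acid (DHA), was the only member to fall. Its signal was 2158, 2439 and 2405 in the permethrin livers, 1882, 2498 and 2382 in the clofibrate livers, and 2938, 2931 and 3497 in the control livers. Every treated liver lay below every control liver, under both diets. The clofibrate change was -0.48 ± 0.12 (SE; limma adjusted p = 0.0484) and passed the threshold narrowly, while the permethrin value of -0.42 ± 0.12 did not pass (limma adjusted p = 0.144). Between permethrin and clofibrate the difference was 0.06, with a 95% interval of -0.21 to 0.33. The clofibrate call remained only without clofibrate replicate 2 among the 9 fits that left out 1 array. Without clofibrate replicate 1 the value was -0.35, and in the other 7 fits that ended the call it lay between -0.52 and -0.39.

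Markers of hepatocytes were read beside the fall of Elovl2. The hepatocyte markers Alb, Apoa1, Ttr, Fgb, Cps1 and Pck1 summed to 46748 to 51988 under permethrin, 39838 to 46165 under clofibrate and 55172 to 63304 under the control diet. Alb, Apoa1, Fgb and Cps1, 4 of these 6, fell under clofibrate, where 3.8% of all genes fell. Under permethrin 0 of the 6 passed the threshold, where 2.13% of all genes changed. Probe sets for spiked-in hybridization controls averaged 9.97 ± 0.18 on the log2 scale in permethrin arrays, 9.78 ± 0.12 in clofibrate arrays and 10.12 ± 0.16 in control arrays (SD, n = 3). With the arrays scaled to the spikes instead, the log2 changes of the tested probe sets moved by a median of 0.14 under permethrin and 0.32 under clofibrate. Elovl2 then stood at -0.14 under clofibrate (limma adjusted p = 0.553). The part of either in the change of Elovl2 was not tested.

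The sequence around the start of Elovl2 is shown because it is 1 of the 2 called members with an entry in the RefSeq promoter table (GRCm38.p6). That table matched 6 of the 10 genes and has no entry for Elovl3, Scd1, Scd2 or Fads1. The stretch covers 250 bases before and 50 bases from the first of 2 listed starts, chr13:41220354-41220653 on the minus strand. Capitals mark each match, on either strand, to GGGCGG, the core of the GC box bound by SP1.
Elovl2: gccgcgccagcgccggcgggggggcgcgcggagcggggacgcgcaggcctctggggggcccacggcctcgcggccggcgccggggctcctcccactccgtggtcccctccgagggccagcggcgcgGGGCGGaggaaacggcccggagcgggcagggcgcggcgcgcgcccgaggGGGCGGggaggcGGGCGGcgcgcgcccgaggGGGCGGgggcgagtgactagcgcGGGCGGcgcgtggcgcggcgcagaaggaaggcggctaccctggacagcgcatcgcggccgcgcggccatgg
It held 5 GC boxes, the first beginning 124 bases before the start and the last 21 bases before it. At least 1 such box stood in 35.7% of 32851 RefSeq promoters of this length. Neither TCACNCCAC, a sterol response element, nor AGGTCANAGGTCA, a repeated nuclear receptor half-site with 1 base between, was found in any of the 6 promoters of this family, and these occurred in 1.24% and 0.0396% of all promoters. Other motifs searched were the NF-Y box CCAAT (37.4% of all promoters), the half-site AGGTCA (16.3%), which the repeated form contains, and the E-box CACGTG (7.15%).

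Elovl5, Elovl6 and Elovl1 did not pass the threshold in any comparison. Elovl5, which lengthens polyunsaturated chains after the first desaturation, read 7169, 7969 and 8245 in the permethrin livers, 6634, 8372 and 7973 in the clofibrate livers, and 6925, 7572 and 6573 in the control livers. These ranges overlapped in every pairing, and the 95% intervals of the log2 change were -0.08 to 0.38 under permethrin and -0.11 to 0.35 under clofibrate. Elovl6, which takes palmitate to stearate and is a lipogenic gene, read 553, 781 and 989 in the permethrin livers, 531, 1446 and 673 in the clofibrate livers, and 373, 753 and 450 in the control livers. Replicate 2 was the highest liver of the clofibrate and of the control group, and the groups overlapped. The log2 change was 0.58 ± 0.36 under permethrin (limma adjusted p = 0.524) and 0.67 ± 0.36 under clofibrate (0.347), with intervals that reached 1.37 and 1.46.

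Elovl1, which makes very long saturated and monounsaturated chains for sphingolipids, was the elongase in which the diets stood apart. Its signal was 823, 1042 and 863 in the permethrin livers, 509, 635 and 584 in the clofibrate livers, and 646, 865 and 704 in the control livers. All permethrin livers lay above all clofibrate livers, and the clofibrate livers also lay below the controls. The difference of permethrin from clofibrate was 0.65 ± 0.14 (SE; limma adjusted p = 0.0755), against 0.30 ± 0.14 for permethrin and -0.35 ± 0.14 for clofibrate over the control diet (limma adjusted p = 0.384 and 0.205). Over 21 alternative settings the clofibrate value over control ranged from -0.44 to -0.02 and passed in 0. The difference between the diets ranged from 0.37 to 0.73. A second probe set gave the same difference of 0.65 (limma adjusted p = 0.0629), while the other two gave 0.13 and, the dimmest, 0.04, with overlapping groups. The first 2 and the dimmest carry the suffix by which the manufacturer marks probes that can match other transcripts.

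**Figure D2:**
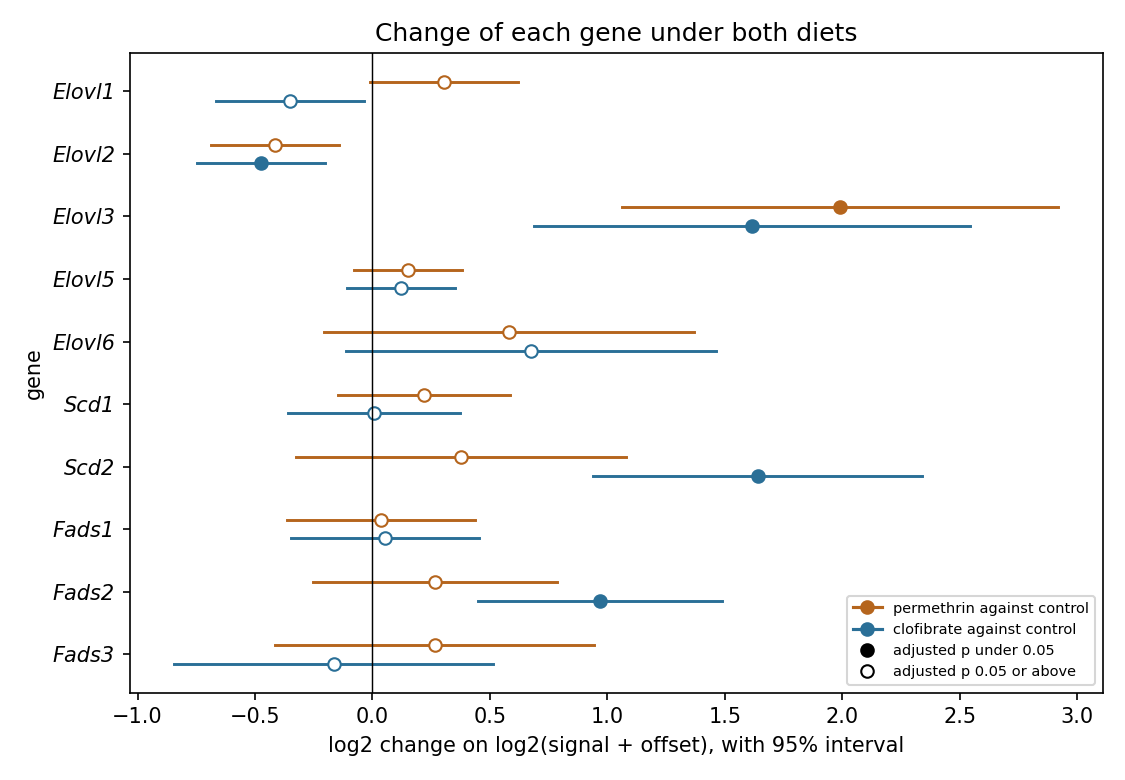
Log2 change of each of the 10 genes over the control diet (x axis, on log2(signal + 3.35)) under permethrin and under clofibrate; points are limma estimates with 95% intervals, 3 arrays a group. Scd2 and Fads2 lie further right under clofibrate than under permethrin, Elovl3 lies right of 0 under both diets and Elovl2 left of 0 under both.

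Among the Δ9 desaturases, Scd1 is the main liver enzyme for oleate, and its 2 probe sets did not give the same picture. The brighter one read 9173, 9933 and 9569 in the permethrin livers, 7015, 9472 and 8432 in the clofibrate livers, and 9431, 9654 and 6061 in the control livers. These groups overlapped, and the changes were 0.22 ± 0.17 under permethrin and 0.01 ± 0.17 under clofibrate (limma adjusted p = 0.614 and 0.987). The dimmer one read 1540, 1842 and 2772 in the permethrin livers, 3700, 4680 and 4151 in the clofibrate livers, and 749, 1001 and 389 in the control livers. Here no 2 groups overlapped, with clofibrate highest and control lowest. Over all tested probe sets 1.61% changed under permethrin and 5.64% under clofibrate. By the dimmer probe set Scd1 rose by 1.58 ± 0.30 under permethrin (SE; 2.99-fold, limma adjusted p = 0.024) and by 2.64 ± 0.30 under clofibrate (6.24-fold, limma adjusted p = 0.000494). Its difference of permethrin from clofibrate, -1.06 ± 0.30, did not pass (limma adjusted p = 0.166). The clofibrate call stood in all 20 alternative settings, and the permethrin call ended without permethrin replicate 2 (1.63), permethrin replicate 3 (1.34) or control replicate 1 (1.67), with no intensity trend (limma adjusted p = 0.117) and with the 6 arrays alone (0.0508). With the probe sets averaged, Scd1 rose by 1.32 under clofibrate (limma adjusted p = 0.00541).

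The brighter Scd1 probe set ranked 43 by mean signal among all probe sets on the array. Over the 43 probe sets that were as bright or brighter, its own included, the median absolute log2 change was 0.18 under permethrin and 0.40 under clofibrate, beside 0.21 and 0.24 over all tested probe sets. The widest absolute change of the 43 was 0.34 under permethrin and 0.55 under clofibrate. In limma 0 and 25 of them changed, beside 1.61% and 5.64% of all tested probe sets. An unadjusted p under 0.05 was found for 12 and 41 of them, beside 3355 and 4661 of all 24548. These values carry no sign, and whether probe sets this bright rose or fell was not counted. The plot of signals relative to the control mean shows the disagreement array by array, and which of the 2 probe sets follows the amount of Scd1 transcript was not tested.

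Scd2, an isoform known mainly from brain and from the liver of young mice, rose under clofibrate. Its signal was 62.5, 96.1 and 76.5 in the permethrin livers, 168, 316 and 129 in the clofibrate livers, and 62.9, 79.4 and 40.3 in the control livers. All clofibrate livers lay above all permethrin and all control livers, and the permethrin and control livers overlapped. Means were 78.4 ± 16.9 under permethrin, 204 ± 98.7 under clofibrate and 60.9 ± 19.6 under the control diet (SD, n = 3 each). The clofibrate change was 1.64 ± 0.32 (SE; 3.12-fold, limma adjusted p = 0.0123), and without control replicate 3 it was 1.39 (0.0521). Under permethrin the value was 0.38 ± 0.32 (limma adjusted p = 0.66). The difference of permethrin from clofibrate, -1.26 ± 0.32, did not pass either (limma adjusted p = 0.127). Of the 2 dimmer probe sets, one read 1.39 under clofibrate with no overlap (limma adjusted p = 0.0519) and the other, near the floor, 0.45.

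**Figure D3:**
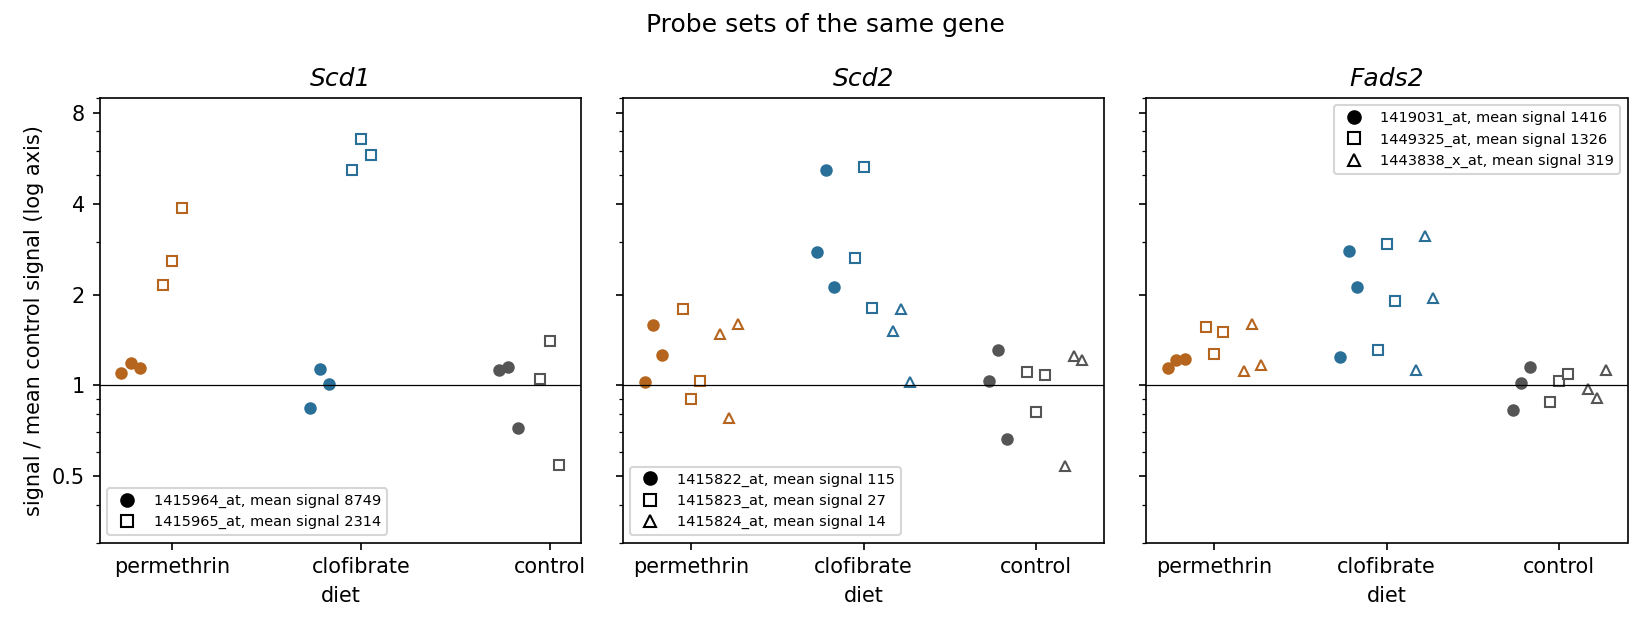
Signal relative to the control mean (log y axis) of every tested probe set of Scd1, Scd2 and Fads2 in each permethrin, clofibrate and control liver; marker shapes are probe sets, colours are groups, and the line at 1 is the control mean. The dimmer Scd1 probe set is raised under both diets while the brighter one stays near 1, and the Fads2 probe sets run close together.

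Fads2, the Δ6 desaturase that starts the conversion of linoleate and α-linolenate, rose under clofibrate, and Fads1, the Δ5 desaturase that follows it, did not pass the threshold. Fads2 read 1144, 1214 and 1223 in the permethrin livers, 1244, 2802 and 2117 in the clofibrate livers, and 831, 1020 and 1152 in the control livers. Every clofibrate liver lay above every permethrin and control liver, but clofibrate replicate 1 did so by a small margin. The clofibrate change was 0.97 ± 0.24 (SE; 1.96-fold, limma adjusted p = 0.0367), and the permethrin value was 0.27 ± 0.24 (limma adjusted p = 0.676). A second probe set read 0.96 ± 0.23 under clofibrate (limma adjusted p = 0.0342) and the dimmest 0.92 ± 0.30 (0.105), with no overlap with control in either. In the dimmest, clofibrate replicate 1 barely cleared the highest control liver, at 245.8 against 245.6. In the second and the dimmest, unlike the first, clofibrate replicate 1 lay within the range of the permethrin livers. The second probe set stood at 0.53 ± 0.23 under permethrin, clear of the controls (limma adjusted p = 0.341). The call of the first ended without permethrin replicate 1 or 3 (0.97 in both fits), clofibrate replicate 2 or 3 (0.71 and 0.91) or control replicate 1, 2 or 3 (0.84, 0.99 and 1.08). Between permethrin and clofibrate Fads2 differed by -0.70 ± 0.24 (limma adjusted p = 0.257), and without clofibrate replicate 1 by -1.03 (0.0211).

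The promoter of Fads2, the other called member with an entry, covers chr19:10101454-10101753 on the minus strand (GRCm38.p6, RefSeq), with capitals for the GC box.
Fads2: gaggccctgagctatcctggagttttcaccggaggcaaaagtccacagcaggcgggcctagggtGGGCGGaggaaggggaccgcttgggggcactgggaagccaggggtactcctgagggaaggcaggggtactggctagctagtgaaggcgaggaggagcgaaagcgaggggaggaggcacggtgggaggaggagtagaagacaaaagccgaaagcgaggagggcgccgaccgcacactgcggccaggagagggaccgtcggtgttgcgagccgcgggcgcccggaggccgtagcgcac
It held 1 GC box, which began 186 bases before the start, and none of the other 5 motifs.

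Fads1 read 3463, 3733 and 3912 in the permethrin livers, 2775, 5308 and 3539 in the clofibrate livers, and 3514, 3559 and 3733 in the control livers. The clofibrate livers reached both below and above all controls, and the 95% interval of the change was -0.35 to 0.45 under clofibrate and -0.36 to 0.44 under permethrin. Fads3, a desaturase-like gene that acts on sphingoid bases, lay near the floor, with 22.0, 24.4 and 23.7 in the permethrin livers, 24.2, 14.9 and 12.2 in the clofibrate livers, and 20.8, 25.3 and 12.5 in the control livers. Its signal passed the floor on 6 arrays, its groups overlapped, and the 95% interval of the log2 change was -0.41 to 0.95 under permethrin and -0.85 to 0.51 under clofibrate. A second, also dim, probe set of Fads3 stood at 0.76 under permethrin and 0.96 under clofibrate (-0.04 to 1.96), the opposite sign to the first under clofibrate, and neither passed. The remaining probe set failed the filter.

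Set against each other, permethrin and clofibrate livers did not overlap in Elovl1, which was higher under permethrin, and in Scd2 and Fads2, which were lower. Such separation held for 3 of the 10 members and for 18.1% of all tested genes. Under permethrin 2 members stood clear of the controls, Elovl3 above and Elovl2 below, as did 22.7% of all genes. Under clofibrate 5 did, against 27.2%, with Elovl3, Scd2 and Fads2 above and Elovl1 and Elovl2 below. Clofibrate replicate 2 gave the highest value of its group in 8 of the 10 genes, and control replicate 2 in 7. Permethrin replicates 2 and 3 led in 5 each. How often each liver led over all tested genes was not counted, so these counts cannot be read as particular to the members. The 2 comparisons with the control diet share their control arrays, so these values are given side by side and not as separate evidence.

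For each called member, the genes with the closest profile over the 9 livers were found by the root mean square difference of log2 values centred on each gene, among 12476 other genes. Fitm2 and Fitm1, which take part in forming lipid droplets, were nearest to Elovl3, at 0.49 and 0.52, followed by Synpo, an actin-binding protein, at 0.53, where the profile of Elovl3 itself spread by 1.03. Scd2 lay nearest to 1810008I18Rik (0.26), Rnf186 (0.29) and Idi1 (0.35), the last an isomerase of cholesterol synthesis, against its own spread of 0.81. Fads2 lay nearest to Ropn1l (0.19), Rogdi (0.20) and Hadha (0.21), a mitochondrial β-oxidation subunit, against 0.51. The profile of Elovl2 was followed most closely by Cnot3, Lsr and Plg, all at 0.08 against 0.25.

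Of 7 listed partners that complete the elongation cycle 6 were tested, and 2 of them, Hsd17b12 and Hacd3, rose under both diets. None of the 6 fell past the threshold. Over all tested genes 1.28% rose under permethrin and 3.22% under clofibrate. Hsd17b12, the ketoacyl-CoA reductase, read 2406, 2321 and 2432 in the permethrin livers, 2415, 2774 and 2563 in the clofibrate livers, and 1304, 1482 and 1362 in the control livers. All treated livers stood well above all controls, and the rise was 0.79 ± 0.09 under permethrin (SE; limma adjusted p = 0.00168) and 0.90 ± 0.09 under clofibrate (0.000299). Hacd3, a dehydratase, read 2701, 2794 and 2898 in the permethrin livers, 2571, 3154 and 3421 in the clofibrate livers, and 1874, 1797 and 1944 in the control livers. It rose by 0.58 ± 0.11 under permethrin (limma adjusted p = 0.024) and by 0.69 ± 0.11 under clofibrate (0.0038), and the permethrin call ended without any 1 of the 6 permethrin and control arrays (0.55 to 0.61). Tecr, the enoyl-CoA reductase that closes the cycle, had log2 changes of 0.04 ± 0.12 under permethrin and 0.16 ± 0.12 under clofibrate, with overlapping groups. Hacd1, Hacd2 and Hacd4 did not pass in either comparison, and Hacd2 stood at -0.24 under clofibrate, with all clofibrate livers below all controls. The median log2 change of the 6 genes was 0.45 under permethrin and 0.57 under clofibrate.

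The promoters of Hsd17b12 and Hacd3 are shown because these genes moved together under both diets. They cover chr2:94157860-94158159 and chr9:65021668-65021967, both on the minus strand (GRCm38.p6, RefSeq), and capitals mark NF-Y boxes, GC boxes and E-boxes, with the letters given above, on either strand.
Hsd17b12: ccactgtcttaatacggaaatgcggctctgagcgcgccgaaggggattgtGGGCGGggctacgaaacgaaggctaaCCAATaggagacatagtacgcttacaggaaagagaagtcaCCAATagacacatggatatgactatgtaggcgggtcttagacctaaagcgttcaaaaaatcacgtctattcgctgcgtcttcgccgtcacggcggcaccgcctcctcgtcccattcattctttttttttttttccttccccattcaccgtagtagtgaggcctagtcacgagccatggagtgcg
Hacd3: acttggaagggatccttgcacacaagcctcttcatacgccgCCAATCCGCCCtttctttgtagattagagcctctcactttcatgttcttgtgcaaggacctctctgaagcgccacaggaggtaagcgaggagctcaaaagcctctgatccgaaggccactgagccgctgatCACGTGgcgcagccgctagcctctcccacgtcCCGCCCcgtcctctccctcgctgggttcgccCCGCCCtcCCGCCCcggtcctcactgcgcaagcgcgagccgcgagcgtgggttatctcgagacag
Hsd17b12 held 2 NF-Y boxes and 1 GC box, and Hacd3 held 1 NF-Y box, 4 GC boxes and 1 E-box.

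Of 7 listed genes that pass electrons to the desaturases, 5 were tested and none rose past the threshold in limma. Under permethrin 0 changed (2.13% of all genes), and under clofibrate 1 fell (3.8% of all genes). An unadjusted p under 0.05 was found under permethrin for 1 of the 5, beside 1968 of all 12477 tested genes. Cyb5a, the microsomal cytochrome b5, fell under clofibrate by 0.34 ± 0.08 on the log2 scale (SE; limma adjusted p = 0.0282), with 7304, 8305 and 7933 in the permethrin livers, 6594, 6761 and 6866 in the clofibrate livers, and 8780, 8188 and 8661 in the control livers. This call ended in 12 of 20 alternative settings. The value was -0.01 scaled to the hybridization controls, -0.09 with quantile normalization, -0.18 with cyclic loess and -0.26 with arrays centred on their medians. The call also ended with no filter, no intensity trend or the replicate block. It ended as well without clofibrate replicate 2 or 3 (-0.34 and -0.35) or control replicate 1, 2 or 3 (-0.32, -0.37 and -0.33). Among other elongases and desaturases 8 of 11 listed genes were tested, and 2 changed in limma, both under clofibrate, where 7.02% of all genes changed. Under permethrin 0 of the 8 had an unadjusted p under 0.05, beside 1968 of all 12477 tested genes. Msmo1, the sterol C4-methyl oxidase of cholesterol synthesis, rose by 1.41 ± 0.31 (limma adjusted p = 0.023), a call that ended without clofibrate replicate 2 or 3 (1.09 and 1.39) or control replicate 3 (1.11). Fads6 fell by 0.77 ± 0.20 on the log2 scale (limma adjusted p = 0.0492), and that call ended without any array other than permethrin replicate 1 or 2 (-0.89 to -0.69).

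**Figure D4:**
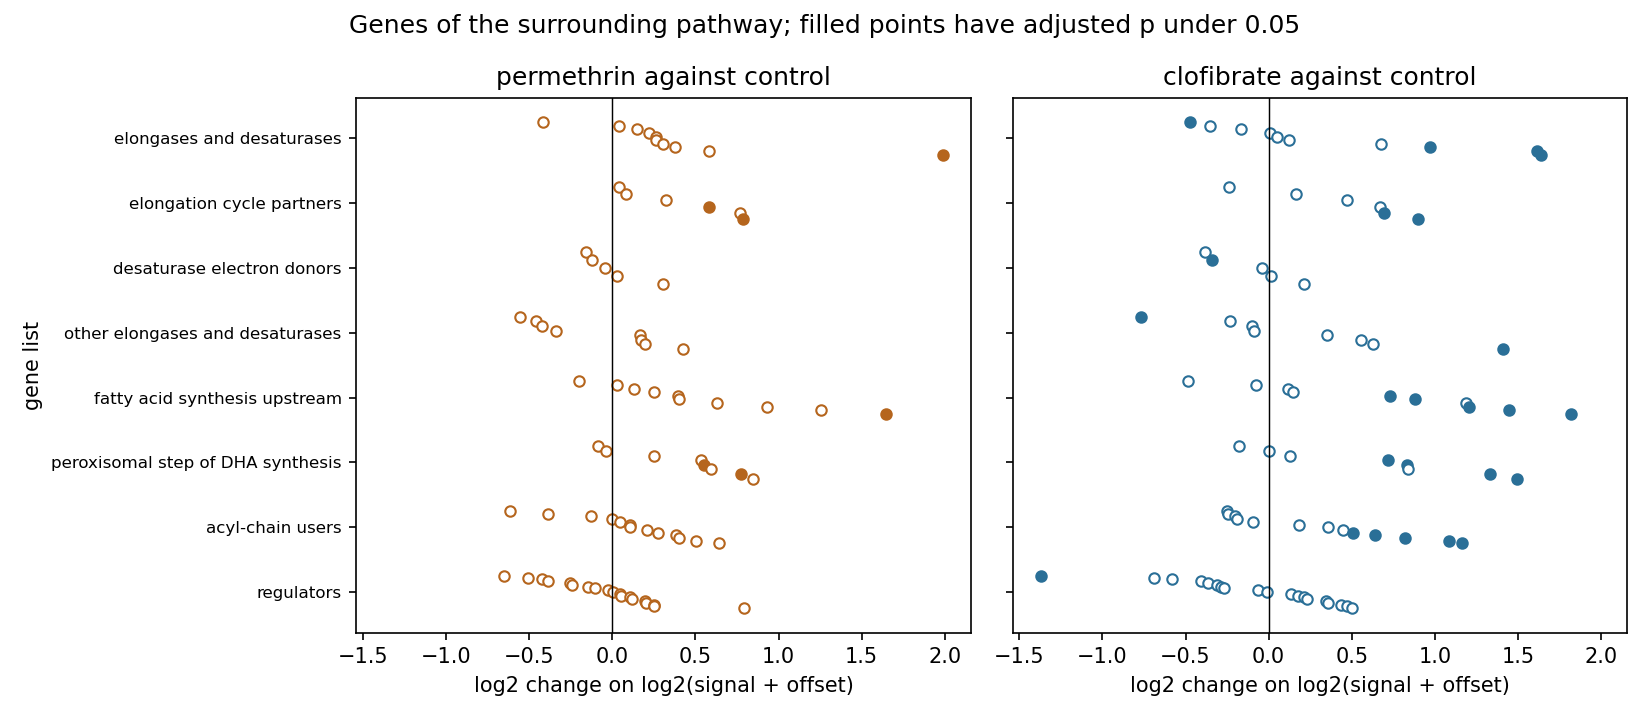
Log2 change over the control diet (x axis) of the tested genes in each list around the elongases and desaturases, under permethrin and under clofibrate; each point is 1 gene, filled where it passed the limma threshold, and the vertical line is at 0. Filled points under clofibrate lie right of 0 in fatty acid synthesis, the peroxisomal step and the acyl-chain users.

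Fatty acid synthesis, which supplies palmitate to the elongases, had 1 of 10 tested genes rise under permethrin and 5 under clofibrate, and none fell. Over all tested genes 1.28% rose under permethrin and 3.22% under clofibrate. Me1, the malic enzyme that supplies NADPH, rose under both diets: it read 2721, 3059 and 3862 in the permethrin livers, 2985, 4192 and 3641 in the clofibrate livers, and 947, 1234 and 886 in the control livers (1.65 ± 0.17 and 1.82 ± 0.17, limma adjusted p = 0.000611 and 0.000158). Fasn, the fatty acid synthase, rose by 1.44 ± 0.37 under clofibrate (limma adjusted p = 0.0441), and its permethrin value was 1.26 ± 0.37 (0.136). Acacb rose by 1.21 ± 0.31 and Acss2 by 0.88 ± 0.21 under clofibrate (limma adjusted p = 0.0478 and 0.0347). Acaca, named after its value was seen, was the fifth, at 0.73 ± 0.19 (limma adjusted p = 0.046). Leaving out 1 array ended the call of Acaca (0.60 to 0.76, for each array but permethrin replicate 1 and clofibrate replicate 1), of Fasn (1.06 to 1.54, for each array but clofibrate replicate 1 and control replicate 2), of Acacb (1.05 to 1.32, for any clofibrate array and control replicate 1 or 3) and of Acss2 (0.63 to 0.92, for clofibrate replicate 2 or 3 and control replicate 2 or 3). The list's median was 0.40 under permethrin and 0.80 under clofibrate.

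DHA synthesis ends with 1 round of peroxisomal chain shortening after ELOVL2, and of its 10 listed genes 8 were tested. Under permethrin 2 rose (1.28% of all genes), under clofibrate 4 (3.22%), and none fell. Abcd3, a peroxisomal acyl-CoA transporter, rose by 0.77 ± 0.11 under permethrin and 0.83 ± 0.11 under clofibrate (limma adjusted p = 0.00411 and 0.000985), the first not passing with no intensity trend (0.0658). Hsd17b4, the D-bifunctional protein, rose by 0.55 ± 0.11 under permethrin and 0.72 ± 0.11 under clofibrate (limma adjusted p = 0.031 and 0.00303), and its permethrin call ended without any permethrin or control array or clofibrate replicate 3 (0.52 to 0.60). Acaa1a, a thiolase, rose by 1.33 ± 0.25 under clofibrate (limma adjusted p = 0.0103; 1.20 and 0.0527 without clofibrate replicate 3). Its probe set carries the suffix, met above in Elovl1, for probes that can match other transcripts. Acot8, a peroxisomal thioesterase, read 481, 381 and 385 in the permethrin livers, 762, 778 and 789 in the clofibrate livers, and 244, 262 and 318 in the control livers. No 2 groups overlapped, and the clofibrate rise was 1.50 ± 0.13 (limma adjusted p = 0.000131). Acot8 was lower under permethrin than under clofibrate, with a log2 difference of -0.90 ± 0.13 (limma adjusted p = 0.0145), a call that ended without permethrin replicate 2 or 3 (-0.85 in both fits) or clofibrate replicate 2 or 3 (-0.90 and -0.89). That call also ended with no intensity trend (limma adjusted p = 0.0854) and with arrays centred on their medians (-0.88, 0.0834).

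Among genes that activate acyl chains or place them into lipids, 13 of 16 listed were tested. Of these, 5 rose under clofibrate (3.22% of all genes) and none under permethrin (1.28%). Acsl3 and Acsl4, acyl-CoA synthetases, rose by 1.16 ± 0.23 and 0.82 ± 0.15 (limma adjusted p = 0.0143 and 0.00915). Lpcat3, which places polyunsaturated chains into phospholipids, rose by 1.09 ± 0.22 (0.0146), and Agpat3 by 0.64 ± 0.11 (0.0057). Acsl5, named after its value was seen, was the fifth, at 0.51 ± 0.12 (0.0381). Leaving out 1 array ended the call of Acsl5 (0.40 to 0.52, for each array but permethrin replicate 1 and clofibrate replicate 1), of Acsl3 without control replicate 1 or 3 (1.11 and 1.06), of Acsl4 without clofibrate replicate 3 (0.74) and of Lpcat3 without clofibrate replicate 3 or control replicate 2 (0.99 and 0.98). The same list had 3 of 13 genes with an unadjusted p under 0.05 under permethrin, beside 1968 of all 12477 tested genes. Of 20 listed regulators of these enzymes 19 were tested. Ppard, a PPAR family receptor, was the 1 gene that changed in limma under clofibrate (7.02% of all genes), and 0 did under permethrin (2.13%). An unadjusted p under 0.05 was found for 4 regulators under permethrin and 9 under clofibrate, beside 1968 and 2626 of all 12477 tested genes. Ppard fell by 1.37 ± 0.34 on the log2 scale under clofibrate (limma adjusted p = 0.0373), and that call ended without clofibrate replicate 1 or 2 or any control array (-1.51 to -1.18). The regulators' median was 0.00 under permethrin and -0.01 under clofibrate. Under clofibrate 4 regulators lay above and 6 below all controls, where 27.2% of all genes stood clear. Under permethrin 3 lay above and 4 below, where 22.7% did.

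Across the series, array medians lay between 13.4 and 17.9, and the brightest signal was 12792 to 13409 on permethrin arrays, 10714 to 12058 on clofibrate arrays and 14387 to 14899 on control arrays. The number of arrays, 3 a group, limits the precision. Of 7 listed markers of pancreatic acinar cells 5 had a probe set, and their sum was 195 to 322 under permethrin, 228 to 263 under clofibrate and 1165 to 1468 under the control diet. Nearly all of it was Cela1, the 1 marker that fell, with 165 to 287 under permethrin, 179 to 216 under clofibrate and 1076 to 1409 under the control diet. The defining markers Cpa1 and Ctrb1 lay below the floor on all 9 arrays. The dim markers Prss2 and Cela2a did not pass the threshold under either diet. Prss2 stood at -1.19 under permethrin (limma adjusted p = 0.191) and -0.16 under clofibrate (0.688). Cela2a stood at -0.71 under permethrin (limma adjusted p = 0.501) and -1.40 under clofibrate (0.0814). Of these values, only that of Prss2 under clofibrate came with livers that overlapped the controls. Kupffer, stellate, endothelial, bile duct and blood cell markers had no gene past the threshold in the comparisons of either diet with control. Endothelial markers summed to 1481 to 1706 under permethrin, 1288 to 1394 under clofibrate and 1635 to 1842 under the control diet. Stellate markers summed to 2277 to 2552, 2019 to 2762 and 2728 to 3504 in the same order. Kupffer, bile duct and blood cell sums overlapped the controls under both diets. Whether the share of any cell type changed was not tested.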

How the data were processed

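Total RNA from 9 livers was labelled with biotin and read on an Affymetrix mouse array, 1 array a mouse. The deposited table holds linear signal intensities for 45101 probe sets, made by the authors with MAS5, per the submitters' processing notes; its version is not given in the sources used here. Each array's deposited signals share a trimmed mean of 100.001 (2% cut from each end), so the authors scaled each array to 100, as the values show. The descriptions of the treated samples name rats, while organism, source and strain name mouse; they were taken as mouse.

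Control probe sets (64) were set aside. Of 45037 others, 34945 had 1 gene symbol in the platform annotation, 932 several and 9160 none, and 34741 were given their RefSeq name through the Entrez identifier. Signals were tested on log2(signal + 3.35), the offset being the 20th percentile of all signals, where a probe set passed 15.6, the median of all signals, on at least 3 arrays. limma 3.58.1 (R 4.3.3) fitted 1 model over 3 groups with an intensity trend. Samples were grouped by their titles. Named genes were the 10 members, up to 4 genes of each further list with the widest change past the threshold, and the 3 nearest genes of each called member. Outside this rule, Acaca, Acsl5, Tecr, Hacd1, Hacd2 and Hacd4 were also named. Members and lists were chosen with earlier results of these data known. The alternatives were another offset, normalization, filter, variance estimate, choice of arrays or of probe set, a replicate block and leaving out each array. The fit was tested on simulated data. Replicate numbers did not pair the samples (correlations of deviations from -0.109 to 0.113).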

Additional observations from a re-analysis of the deposited data

How the results depend on the processing

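The number of arrays and, for Fads3 and the dimmer Scd2 probe sets, signals near the floor limit these results. In 21 alternative settings, 9 of which left out 1 array, 74 gene results were recomputed, 33 of them past the threshold, and 26 of 1510 recomputed values changed sign, 0 of them past the threshold in either setting. The cause of the changes below was not tested.

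The members called under permethrin, 1 in the reported fit, were 0 with no filter, no trend, the 6 arrays alone and the replicate block, and 0 to 1 without 1 array. Those called under clofibrate, 4, were 1 with arrays centred on their medians (Scd2), 2 with cyclic loess (Scd2 and Fads2), 1 with no filter (Scd2), 0 with no trend and 2 with the 6 arrays alone (Elovl3 and Scd2), and 0 to 3 without 1 array. Quantile normalization called 3, Elovl5, Scd2 and Fads2: it gained Elovl5, at 0.38 (limma adjusted p = 0.0244), and lost Elovl2 (-0.41, 0.0501) and Elovl3 (1.61, 0.0526). With no trend, the named genes of the further lists that were still called over control were Hsd17b12 and Me1 under permethrin, and Hsd17b12, Hacd3, Me1, Abcd3, Hsd17b4, Acot8, Acaa1a, Acsl4 and Agpat3 under clofibrate. Between permethrin and clofibrate 0 to 1 were called without 1 array. The replicate number does not pair the samples; with it as a replicate block, 2 were called between permethrin and clofibrate, Elovl1 (0.65) and Scd2 (-1.26), and all probe sets called numbered 299, 1130 and 92 in the order permethrin and clofibrate over control, then permethrin over clofibrate.

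Of all probe sets, 395 were called under permethrin (248 higher, 147 lower), 227 with arrays centred on their medians (191 and 36), 260 scaled to the hybridization controls (229 and 31), 122 with no trend and 162 to 490 without 1 array. Under clofibrate 1384 were called (696 and 688), 806 with median centring (539 and 267), 1888 scaled to the hybridization controls (1764 and 124), 656 with no trend and 664 to 1435 without 1 array. Between permethrin and clofibrate 136 were called (81 and 55), 54 with median centring (39 and 15), 81 scaled to the hybridization controls (16 and 65), 24 with no trend, 69 with the 6 arrays alone and 28 to 177 without 1 array.

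Values whose sign turned, all far from the threshold, were between permethrin and clofibrate Elovl5 (-0.15 with quantile normalization, -0.094 with loess, -0.16 scaled to the hybridization controls), Scd1 (-6e-04 with quantile normalization, -0.43 as a mean over probe sets), Elovl2 (-0.018 with loess, -0.13 scaled to the hybridization controls) and Fads1 (0.0071 with median centring). Over control they were Cyb5a under permethrin (0.024 scaled to the hybridization controls), Fads3 under clofibrate (0.11 with that scaling, 0.16 as a mean over probe sets) and Fads1 under permethrin (-0.020 as a mean over probe sets). Without 1 array, permethrin against clofibrate ranged from -0.39 to 0.33 for Elovl6, -0.23 to 0.24 for Fads1, -0.070 to 0.10 for Elovl5 and -0.066 to 0.14 for Elovl2. Clofibrate over control then ranged from -0.21 to 0.12 for Scd1, -0.20 to 0.27 for Fads1 and -0.41 to 0.017 for Fads3, and permethrin over control from -0.0022 to 0.086 for Fads1.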
